A study of Homo sapiens with 20 samples.

Results

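HCT116 cells, a human colorectal carcinoma line, were compared at 12 h and at 5 h of culture in the treatments that serve as controls for the active compounds. These were DMSO vehicle at 0.5% and the sulfide-depleted analogs MeS-chaetocin and MeS-chetomin at 500 nM. The libraries were chosen by their labels alone, 6 at 12 h (2 each of MeS-chaetocin, MeS-chetomin and DMSO) and 6 at 5 h with the same groups, 12 of the 20 libraries of the series. The other 8 libraries held cells given chaetocin or chetomin, fungal products that carry a disulfide bridge. Cells were seeded, left overnight to attach, and then given vehicle or analog for the stated time, and the labels call the replicates biological. No cells without DMSO or analog were among these groups, so time in culture and time with the vehicle or analog cannot be told apart. The 2 times were deposited in separate sets of tables, so a difference between times also cannot be told apart from a difference in how the 2 sets were made.

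Cells in culture change their transcripts over hours as they spread, use nutrients, touch their neighbours and move through the cell cycle. Several textbook programmes report such changes. The circadian clock is a loop in which CLOCK and BMAL1 bind the E-box and switch on PER, CRY, NR1D and the PAR-bZIP factors DBP and TEF, whose products then feed back on it. ATF4 drives amino acid supply and stress genes when translation is restrained. YAP with TEAD factors drives CCN1 and CCN2 in spread, sparse cells, and immediate early genes answer growth factors within minutes.

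Genes listed at both times numbered 14072, of 15381 listed at 12 h and 14222 at 5 h. Most of the 1309 genes listed only at 12 h were low, and 9 of them averaged at least 5 units, as did 11 of the 150 listed only at 5 h. Effective library sizes were 28.04 to 36.7 M reads at 12 h and 24.7 to 39.8 M reads at 5 h. Each value is a deposited normalized value per library, called a unit here. The median gene was 0.15 higher at 12 h on the log2(value + 1) scale, a 1.11-fold shift, and this shift was subtracted before any test. The shift within a treatment was 0.20 in MeS-chaetocin, 0.07 in MeS-chetomin and 0.18 in DMSO. Of 8 colorectal epithelial markers, 6 were listed, and their summed level was 3256 to 4388 units at 12 h against 3886 to 4991 at 5 h. Of 26 markers of other cell types 8 were listed. Of 6 fibroblast markers only COL1A1 was listed, at 5.36 to 14.3 units at 12 h against 1.39 to 4.4 at 5 h, and it rose (log2 difference 1.20, adjusted p = 0.00211). Of haematopoietic markers only CD68 was listed (1.03 to 2.2 units at 12 h, 0.2 to 3.46 at 5 h), of endothelial only KDR and of liver only ALB (both under 1 unit), and PTPRC, PECAM1 and APOA1 were unlisted. Of 6 muscle and neural markers 4 were listed, summing to 2.1 to 4.98 units at 12 h against 1.33 to 2.74 at 5 h, and DES rose (log2 difference 0.49, adjusted p = 0.023). The part of these markers in the results was not tested. In bulk RNA, fewer cells of a kind and less RNA per cell cannot be told apart.

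Replicate 1 of MeS-chaetocin and of DMSO, both at 5 h, differed from the remaining 10 libraries. Their 10 highest genes held 14% and 20.3% of the summed values, against 9.7% to 12.4% elsewhere. On the first principal component, which held 55% of the variance, they lay at 55.3 and 43.8 and the others between -25.9 and 17.3. Both are 5 h libraries, so results are given without them where that mattered.

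Between 12 h and 5 h, 4313 of 14072 genes (30.6%) passed an adjusted p under 0.05 by limma with treatment as a covariate. At 12 h, 1890 were higher (13.4%) and 2423 were lower (17.2%). Most changes were small: 112 genes rose (0.796%) and 101 fell (0.718%) by at least 1 on the log2 scale. All 6 centred values at 12 h lay above all 6 at 5 h for 774 genes (5.5%), and below for 1323 (9.4%). As deposited, without centring, the shares of genes were 11.8% above and 3.75% below, and overlap of single genes is given on those values. Without the 2 libraries that stood apart, 1603 genes were higher (11.4%) and 1561 lower (11.1%), and 2825 of the 4313 were called the same way again. Without centring the calls were 3635 higher and 1217 lower, so the split between directions depends on the median subtracted.

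EPN3, an endocytic adaptor of epithelial cells (chromosome 17, 50532543 to 50543750, GRCh38), had the highest rise among called genes that averaged at least 5 units and did not overlap between times after centring. EPN3 ranged from 14.8 to 18.4 units with a median of 17.1 at 12 h, against 1.56 to 4.96 with a median of 3.38 at 5 h. The groups did not overlap, and the log2 difference was 2.01 (standard error 0.21, adjusted p = 0.000272). PALM3, a paralemmin, ranged from 10.4 to 14.98 units at 12 h against 2.08 to 3.11 at 5 h (log2 difference 1.77, adjusted p = 2.24e-05). The alpha-tubulin gene TUBA1A, on chromosome 12 (49184796 to 49189324), ranged from 45.8 to 57.8 units with a median of 51.2 at 12 h, against 14.8 to 19.2 with a median of 16.5 at 5 h. It rose by nearly the same amount in each treatment, 1.38 in MeS-chaetocin, 1.43 in MeS-chetomin and 1.45 in DMSO, with an adjusted p of 8.7e-06 over all. The beta-tubulin gene TUBB4A rose as well (log2 difference 1.39, 22.7 to 36.1 units at 12 h against 5.05 to 12.9 at 5 h). DHRS3, a retinal reductase, ranged from 31.6 to 39.8 units at 12 h against 8.26 to 14.2 at 5 h (log2 difference 1.43, adjusted p = 0.000127). PCDH1 (a protocadherin, 1.43), LOXL2 (a lysyl oxidase, 1.38), TRIOBP (an actin-bundling protein, 1.38), NCOA2 (a nuclear receptor coactivator, 1.32) and PPL (periplakin, 1.3) completed the 12 highest rises together with TJP3 and DBP, which are described with their lists.

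The same ranking of falls was led by CPA4. CPA4 encodes a secreted carboxypeptidase (chromosome 7, 130293134 to 130324180) and ranged from 2.22 to 4.14 units with a median of 3.39 at 12 h, against 6.47 to 27.8 with a median of 19.3 at 5 h. All 6 values at 12 h were below all 6 at 5 h, although the 5 h values were widely spread, and the log2 difference was -2.06 (standard error 0.31, adjusted p = 0.00118). DKK1, a secreted Wnt inhibitor on chromosome 10 (52314296 to 52318042), ranged from 67.8 to 79.4 units with a median of 76.7 at 12 h, against 207 to 321 with a median of 237 at 5 h. Its groups were far apart in every treatment, and it had the smallest adjusted p-value of all genes tested, 2.41e-06, with a log2 difference of -1.84 (standard error 0.09). TAGLN, the actin-binding protein transgelin, ranged from 6.47 to 11.1 units at 12 h against 23.9 to 30.3 at 5 h (log2 difference -1.69, adjusted p = 6.26e-05). ANXA3, an annexin, ranged from 61.0 to 77.3 units at 12 h against 151 to 189 at 5 h (log2 difference -1.43, adjusted p = 8.7e-06). F3, which encodes tissue factor, fell by 1.35 on the log2 scale and did not overlap between times. Others among the 12 steepest falls were KRTAP2-3, a keratin-associated protein (-1.63), CHAC1 (-1.52), RPF2, a ribosome assembly factor (-1.46), NDUFAF4, a respiratory complex assembly factor (-1.35), and MIX23 (-1.35), together with AC146944.4 and AL513523.10, whose deposited values overlapped between times.

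**Figure D1:**
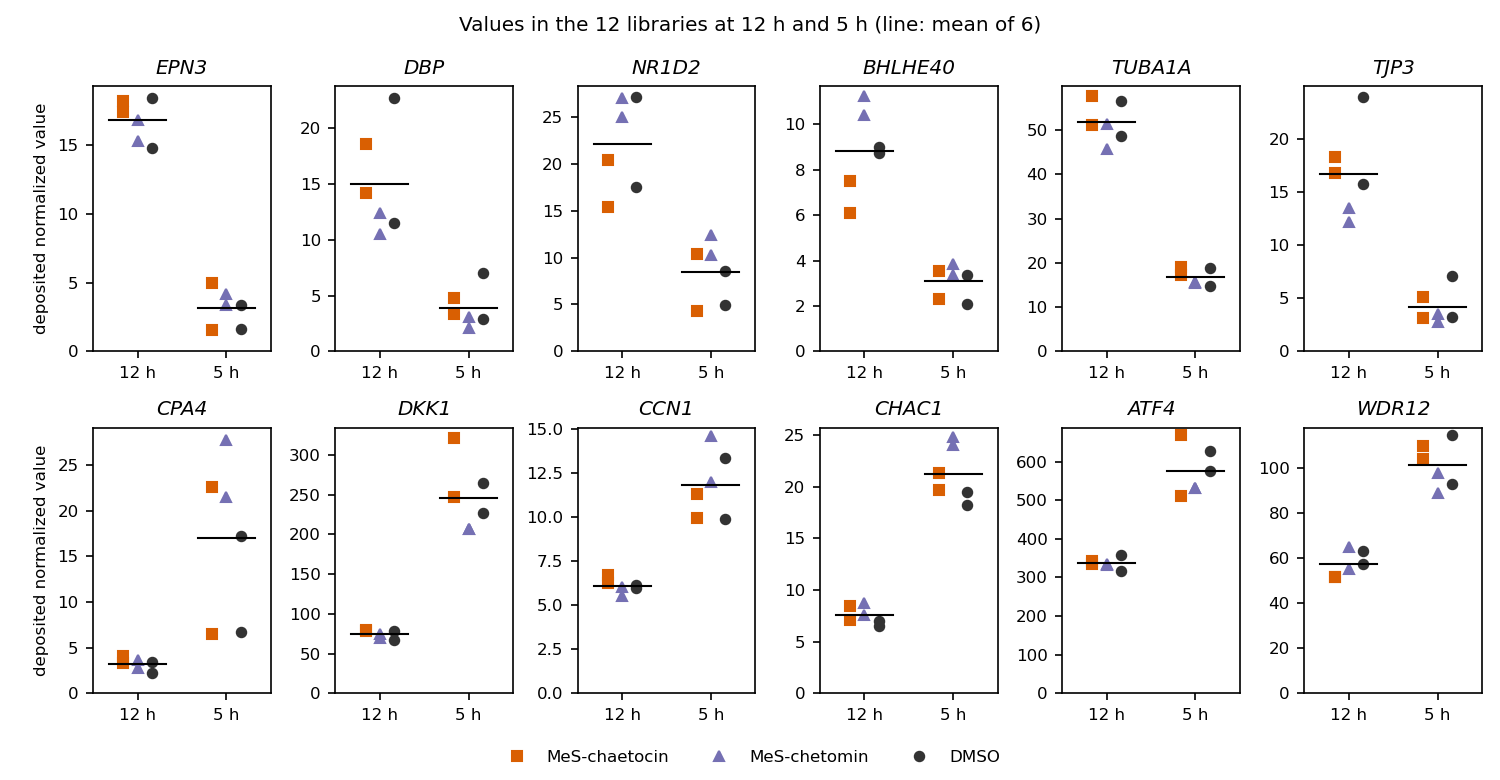
Deposited normalized values (vertical axis, from 0) of 12 genes in the 12 libraries at 12 h and 5 h, with squares for MeS-chaetocin, triangles for MeS-chetomin, circles for DMSO and a line at the mean of the 6 libraries. EPN3 lies between 14.8 and 18.4 at 12 h and under 5 at 5 h, and DKK1 lies under 80 at 12 h and above 200 at 5 h.

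Circadian clock genes had the highest median of the 33 lists over all 3 treatments. Of 17 clock genes measured, 10 rose and 2 fell, against 13.4% and 17.2% of all genes, and the list's median log2 difference was 0.55 against 0 for all genes. Output factors led. DBP, a PAR-bZIP activator on chromosome 19 (48630030 to 48637438), ranged from 10.5 to 22.7 units with a median of 13.3 at 12 h, against 2.14 to 7.04 with a median of 3.24 at 5 h. No value overlapped, and the log2 difference was 1.58 (standard error 0.21, adjusted p = 0.000659). TEF, its close relative, ranged from 6.34 to 7.62 units with a median of 6.76 at 12 h, against 1.19 to 1.96 with a median of 1.53 at 5 h. TEF was thus low but tightly grouped, with a log2 difference of 1.47 and an adjusted p of 1.04e-05.

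Several genes of the repressor arm of the loop also rose. NR1D2, a nuclear receptor that represses BMAL1, ranged from 15.4 to 27.1 units at 12 h against 4.35 to 12.4 at 5 h (log2 difference 1.18, adjusted p = 0.00223). Its relative NR1D1 ranged from 13.7 to 16.8 units at 12 h against 4.33 to 7.97 at 5 h (log2 difference 1.11, adjusted p = 0.000564). BHLHE40, a repressor of E-box genes, ranged from 6.10 to 11.2 units at 12 h against 2.10 to 3.83 at 5 h (log2 difference 1.12, adjusted p = 0.000493). These 3 repressors did not overlap between times. Period genes rose less: PER2 by 0.79, PER1 by 0.67 and PER3 by 0.37, and PER1 ranged from 14.2 to 23.2 units at 12 h against 7.21 to 11.4 at 5 h. CRY2 rose by 0.60, and USP2, a deubiquitinase with a rhythmic transcript, by 0.37.

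Other clock genes fell or were not called. NFIL3, the repressor that competes with DBP and TEF for their sites, fell to 10.6 to 14.4 units at 12 h, against 15.4 to 19.2 at 5 h (log2 difference -0.57, adjusted p = 0.00333). CRY1, also of the repressor arm, fell with a log2 difference of -0.43 (adjusted p = 0.0435) and overlapping groups. The activators were not called: BMAL1 had a log2 difference of -0.17 and CLOCK of 0.13. The list's median was 0.76 in MeS-chaetocin, 0.19 in MeS-chetomin and 0.59 in DMSO, and 11 members were higher in all 3 treatments. Without the 2 libraries that stood apart 9 rose (median 0.40), beside 11.4% of all genes. With a length and GC trend removed 8 rose, beside 15.9% of all genes. The median was then 0.28, below mitochondrially encoded genes (0.47) and TGF-beta targets (0.41). In MeS-chetomin alone, in the first fit, mitochondrially encoded genes (0.42) and hypoxia targets (0.35) were higher. TEF, NR1D1 and the PER, CRY, NFIL3 and USP2 genes were named after their values were seen.

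**Figure D2:**
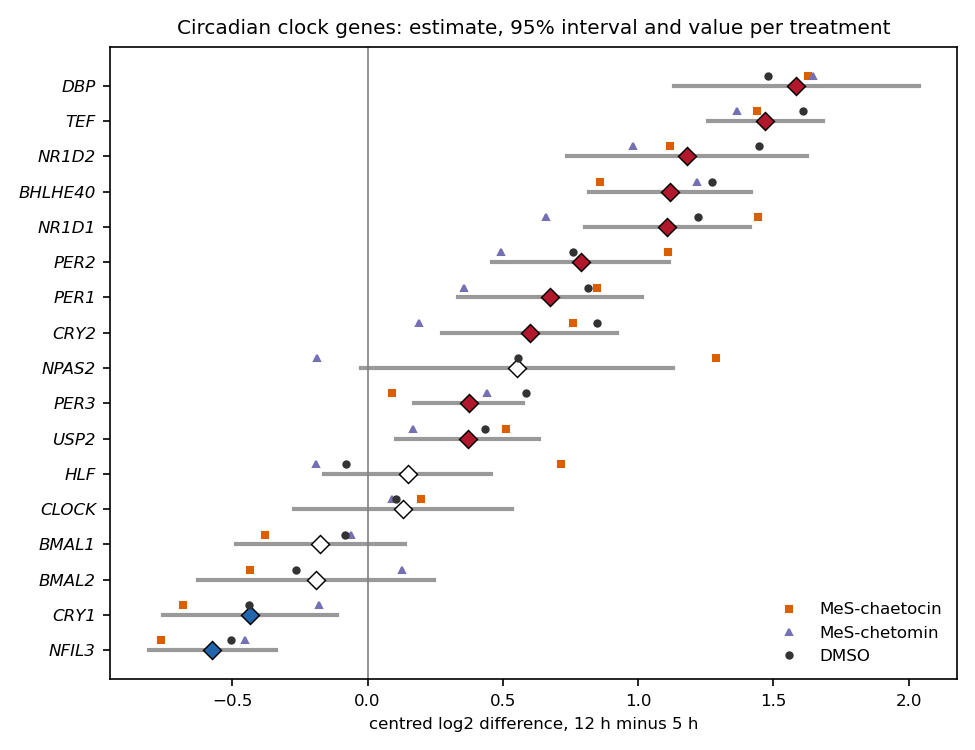
Centred log2 difference (12 h minus 5 h, horizontal axis) of the 17 clock genes measured; diamonds are estimates over all 3 treatments (red rose, blue fell, white not called), bars are 95% intervals and the small symbols are the values within each treatment. DBP and TEF are at 1.58 and 1.47, and NFIL3 at -0.57.

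Promoters of 3 clock genes that rose are shown because their RefSeq promoter (GRCh38.p14, 250 bases before to 50 after the start) holds the E-box CACGTG that CLOCK and BMAL1 bind, in capitals. TEF is on the plus strand at chr22:41367205-41367504, PER1 on the minus strand at chr17:8152355-8152654 and BHLHE40 on the plus strand at chr3:4979187-4979486.
TEF: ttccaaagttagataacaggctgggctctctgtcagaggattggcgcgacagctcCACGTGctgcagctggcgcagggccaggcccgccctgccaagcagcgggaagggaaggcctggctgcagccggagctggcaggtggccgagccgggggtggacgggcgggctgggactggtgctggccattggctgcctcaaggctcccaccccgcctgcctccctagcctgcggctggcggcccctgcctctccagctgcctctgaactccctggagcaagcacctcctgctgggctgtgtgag
PER1: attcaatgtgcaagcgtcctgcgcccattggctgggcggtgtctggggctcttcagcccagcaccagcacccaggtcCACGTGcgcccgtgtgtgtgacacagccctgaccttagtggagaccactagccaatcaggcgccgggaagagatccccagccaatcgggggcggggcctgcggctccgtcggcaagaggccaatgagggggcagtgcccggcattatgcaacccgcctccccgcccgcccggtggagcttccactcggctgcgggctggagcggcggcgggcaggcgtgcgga
BHLHE40: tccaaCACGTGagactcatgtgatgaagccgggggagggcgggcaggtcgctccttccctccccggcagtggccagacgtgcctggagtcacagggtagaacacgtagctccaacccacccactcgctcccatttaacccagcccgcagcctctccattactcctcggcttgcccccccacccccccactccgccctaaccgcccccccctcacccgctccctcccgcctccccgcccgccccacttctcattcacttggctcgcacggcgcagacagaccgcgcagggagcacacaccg

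The E-box, which reads the same on both strands, began 195 bases before the start in TEF, 173 in PER1 and 245 in BHLHE40. It was in 3 of 10 promoters of clock genes that rose (30%), against 10.2% of the 10543 promoters of all tested genes. It was in 7.8% of the promoters of all genes that rose and in 11.4% of those that fell. The CACGTG letters also contain the hypoxia core ACGTG, which was found in 60% of the 10 and 26.9% of all.

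ATF4 and several of its targets in stress and amino acid supply fell. Of 28 measured, 12 fell (42.9%, against 17.2% of all genes) and 2 rose (7.1%, against 13.4%), and the list's median was -0.29. By treatment the median was -0.09 in MeS-chaetocin, -0.42 in MeS-chetomin and -0.33 in DMSO. ATF4 itself, the transcription factor, ranged from 317 to 358 units with a median of 335 at 12 h, against 511 to 669 with a median of 555 at 5 h. The groups did not overlap, and its log2 difference was -0.91 (adjusted p = 0.000157). CHAC1, a glutathione-degrading enzyme on chromosome 15 (40952962 to 40956519), ranged from 6.51 to 8.72 units with a median of 7.33 at 12 h, against 18.2 to 24.8 with a median of 20.5 at 5 h. Its fall was -1.45 in MeS-chaetocin, -1.62 in MeS-chetomin and -1.50 in DMSO, with an adjusted p of 8.7e-06 over all. DDIT3, the stress factor CHOP, ranged from 12.2 to 16.9 units at 12 h against 26.8 to 37.6 at 5 h (log2 difference -1.24, adjusted p = 0.000195). The pseudokinase TRIB3 fell by 0.69 and the mitochondrial folate enzyme MTHFD2 by 0.70. Against these, GDF15, a secreted stress cytokine, rose (60.2 to 94.4 units at 12 h against 35.7 to 48.4 at 5 h, log2 difference 0.66), as did PHGDH, the first enzyme of serine synthesis (0.47). The amino acid enzyme gene ASNS was not called (log2 difference -0.08, adjusted p = 0.631), and its sign turned without the centring.

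The CHAC1 promoter (plus strand, chr15:40953221-40953520, same source) is shown because it holds the C/EBP-ATF element TGATGNAA, here read on the other strand and set in capitals, 209 bases before the start.
CHAC1: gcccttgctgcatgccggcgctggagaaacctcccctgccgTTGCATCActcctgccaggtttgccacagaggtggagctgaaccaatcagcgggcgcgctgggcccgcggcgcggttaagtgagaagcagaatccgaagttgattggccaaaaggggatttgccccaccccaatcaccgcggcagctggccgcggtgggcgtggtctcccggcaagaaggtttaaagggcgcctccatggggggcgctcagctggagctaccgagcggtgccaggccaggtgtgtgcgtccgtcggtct

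That element was in 3 of 12 promoters of fallen list members (25%) and in 1.57% of all promoters. ATF4 and DDIT3 were among the members whose window did not hold these letters.

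Heat shock genes and endoplasmic reticulum chaperone genes were called in the downward direction only, before any length and GC trend was removed. Of 24 heat shock genes 12 fell and none rose (median -0.25). Of 20 endoplasmic reticulum genes 8 fell and none rose (median -0.25). The fallen shares were 50% and 40%, against 17.2% of all genes. Without the 2 libraries that stood apart the counts were 8 and 5, with 11.1% of all genes lower. With the length and GC trend removed 13 and 9 fell, beside 18.3% of all genes. In that fit 1 gene of each list rose, beside 15.9% of all genes. DNAJA1, an HSP70 co-chaperone, ranged from 205 to 264 units with a median of 238 at 12 h, against 298 to 394 with a median of 340 at 5 h. The groups did not overlap (log2 difference -0.67, adjusted p = 0.00106). HSPA8, the constitutive HSP70, ranged from 1653 to 1997 units at 12 h against 2006 to 2652 at 5 h (log2 difference -0.48, adjusted p = 0.003). HSPA5, the endoplasmic reticulum HSP70, ranged from 220 to 241 units at 12 h against 292 to 337 at 5 h (log2 difference -0.56, adjusted p = 0.000473). XBP1, a factor of the unfolded protein response, fell by 0.59 without overlap, and DNAJB11, a luminal co-chaperone, by 0.66 with overlap.

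The DNAJA1 promoter (plus strand, chr9:33025023-33025322, same source) is shown because it holds the inverted repeat GAANNTTC of the heat shock element in 2 places, in capitals.
DNAJA1: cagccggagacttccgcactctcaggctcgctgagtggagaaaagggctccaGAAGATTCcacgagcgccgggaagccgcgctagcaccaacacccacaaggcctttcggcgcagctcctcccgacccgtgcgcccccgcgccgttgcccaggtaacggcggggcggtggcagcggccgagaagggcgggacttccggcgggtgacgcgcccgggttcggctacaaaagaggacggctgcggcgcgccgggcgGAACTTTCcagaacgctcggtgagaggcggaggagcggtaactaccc

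GAANNTTC was in 5 of 11 promoters of fallen heat shock genes (45.5%), against 4.47% of all promoters. HSPD1 and HSPE1, both in the list and both lower, are a neighbouring pair that shares a promoter region, so the 11 are not independent.

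Most genes of ribosome assembly and most hosts of small nucleolar RNAs fell. Of 30 ribosome biogenesis genes 18 fell (60%, against 17.2% of all genes) and none rose (median -0.42). Without the 2 libraries 19 were lower, beside 11.1% of all genes. With the length and GC trend removed 21 were lower, beside 18.3% of all genes. WDR12, a large-subunit assembly factor, ranged from 51.7 to 65.1 units with a median of 56.5 at 12 h, against 88.9 to 115 with a median of 101 at 5 h. All 12 h values lay below all 5 h values (log2 difference -0.96, adjusted p = 0.000195). NOP16, a nucleolar protein, ranged from 81.3 to 109 units at 12 h against 135 to 184 at 5 h (log2 difference -0.88, adjusted p = 0.0003). GAR1, of the pseudouridylation complex, had a log2 difference of -1.04 with overlapping groups. Of 16 host genes of small nucleolar RNAs, 14 fell (87.5%, against 17.2% of all genes) and none rose. Their median of -0.58 was the lowest of the 33 lists over all 3 treatments. Without the 2 libraries that median was -0.34 and 3 lists were lower, YAP and TEAD targets (-0.40), ATF4 targets (-0.39) and ribosome biogenesis (-0.38), and in MeS-chetomin it was -0.30. SNHG1, one such host, ranged from 85.6 to 118 units at 12 h against 136 to 154 at 5 h (log2 difference -0.65, adjusted p = 0.00128). SNHG8 fell by 0.84 without overlap, and SNHG15 by 0.78 and SNHG5 by 0.83 with overlap.

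Subunit genes of the proteasome, the ribosome and the respiratory chain had falls and, before any trend was removed, no rises. Their counts depended more on the fit. Of 31 proteasome genes 21 fell (67.7%), and of 33 cytosolic ribosomal protein genes 11 fell (33.3%). Of 32 nuclear respiratory chain genes 12 fell (37.5%). None was higher, and 17.2% of all genes fell. The core subunit genes PSMA1 (112 to 158 units at 12 h against 164 to 330 at 5 h, log2 difference -0.82) and PSMA2 (115 to 156 against 163 to 421, -0.95) fell without overlap. NDUFB3, of complex I, ranged from 68.3 to 97.2 units at 12 h against 100.2 to 178 at 5 h (log2 difference -0.79, adjusted p = 0.00302). Without the 2 libraries the counts were 14, 4 and 6, with 11.1% of all genes lower. With a length and GC trend removed they were 16, 4 and 8, with 18.3% of all genes lower. In that last fit 1 respiratory chain gene rose. The 4 ribosomal protein genes were near or below the share of all genes in these 2 fits. None of the 13 mitochondrially encoded genes was called (median 0.12), but 5 rose with the trend removed (median 0.47), beside 15.9% of all genes.

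Some targets of YAP and some immediate early genes fell. Of 18 YAP and TEAD targets 7 fell (38.9%, against 17.2% of all genes) and none rose (median -0.27). With the length and GC trend removed 11 fell, beside 18.3% of all genes. The list's median was -0.09 in MeS-chaetocin, -0.48 in MeS-chetomin and -0.18 in DMSO. CCN1, a matricellular protein on chromosome 1 (85580761 to 85583962), ranged from 5.52 to 6.72 units with a median of 6.10 at 12 h, against 9.87 to 14.6 with a median of 11.6 at 5 h. The groups did not overlap (log2 difference -0.99, adjusted p = 0.000487). CCN2 was low, 0.33 to 0.57 units at 12 h against 0.67 to 1.28 at 5 h, and fell by 0.61 on the log2(value + 1) scale, which understates changes at such levels. GADD45B, a stress-inducible gene, ranged from 13.1 to 24.7 units at 12 h against 25.6 to 51.9 at 5 h (log2 difference -0.98, adjusted p = 0.000493). Of 35 immediate early genes 12 fell (34.3%, against 17.2% of all genes) and 3 rose (8.6%, against 13.4%), with a median of -0.17. That median was -0.01 in MeS-chaetocin, -0.47 in MeS-chetomin and -0.13 in DMSO. NR4A1, a nuclear receptor, ranged from 5.81 to 12.7 units at 12 h against 14.0 to 21.6 at 5 h (log2 difference -0.98, adjusted p = 0.00196). FOSL1, an AP-1 subunit, ranged from 70.3 to 99.0 units at 12 h against 105 to 163 at 5 h (log2 difference -0.83, adjusted p = 0.00142). JUN fell by 0.71 with overlap, and FOS was not called (log2 difference -0.40). ETV5, a factor downstream of ERK signalling, rose (24.4 to 35.2 units at 12 h against 13.7 to 21.9 at 5 h).

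Of 24 junction and keratin genes 8 rose (33.3%, against 13.4% of all genes) and 5 fell (20.8%, near the 17.2% of all genes), with a median of 0.24. Among those that rose, CLDN3, DSC2, DSP, JUP, CLDN4, CTNND1 and CDH1 encode proteins of tight junctions, desmosomes and adherens junctions. The tight junction claudin CLDN3 ranged from 9.64 to 18.3 units at 12 h against 3.11 to 6.39 at 5 h (log2 difference 1.15, adjusted p = 0.00189). CDH1, E-cadherin, ranged from 16.3 to 20.9 units at 12 h against 6.55 to 15.4 at 5 h. The scaffold TJP3, outside the list, ranged from 12.1 to 23.9 units at 12 h against 2.77 to 7.10 at 5 h (log2 difference 1.66, adjusted p = 0.0003). The 5 that fell were KRT7, KRT80, KRT18, KRT8 and EPCAM, and KRT80 ranged from 1.62 to 2.13 units at 12 h against 2.93 to 6.29 at 5 h. Among matrix and integrin genes 6 of 19 rose and 2 fell, led by ITGB4, the hemidesmosome integrin (55.6 to 80.2 units at 12 h against 17.8 to 40.8 at 5 h, log2 difference 1.01). With the length and GC trend removed 6 rose and 5 fell, beside 15.9% and 18.3% of all genes, and the median turned to -0.05 from 0.18.

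Of 18 Wnt targets 8 rose (44.4%, against 13.4% of all genes) and 2 fell (11.1%, against 17.2%), with a median of 0.32. That median was 0.67 in MeS-chaetocin, 0.36 in DMSO and only 0.10 in MeS-chetomin. The inhibitor DKK1 fell steeply while the negative regulators NOTUM (1.3), AXIN2 (0.78) and RNF43 (0.66) and the receptors EPHB2 (1.21) and EPHB3 (0.74) rose. EPHB2 ranged from 8.95 to 12.8 units at 12 h against 2.02 to 4.76 at 5 h, with no overlap (adjusted p = 0.00106). MYC fell by 0.49 with overlapping values of 147 to 219 units at 12 h against 182 to 262 at 5 h, and CCND1 was not called (log2 difference 0.07). Of 13 TGF-beta and BMP targets 6 rose (46.2%) and 1 fell (7.7%), with a median of 0.31. By treatment it was 0.495 in MeS-chaetocin, 0.5 in DMSO and only 0.10 in MeS-chetomin. The inhibitor of DNA binding genes ID1, ID2 and ID3 rose by 0.77, 1.01 and 0.84, and ID2 ranged from 116 to 202 units at 12 h against 52.0 to 84.3 at 5 h.

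Hypoxia and metabolic lists were mixed, beside 13.4% risen and 17.2% fallen of all genes. Of 21 hypoxia targets 8 rose (38.1%) and 2 fell (9.5%), with a median of 0.20. The list's median was -0.02 in MeS-chaetocin, 0.35 in MeS-chetomin and 0.25 in DMSO. The demethylase genes KDM3A (0.87) and KDM4B (0.86) and the mitophagy receptor BNIP3L (0.79) rose, and VEGFA was not called (log2 difference -0.05). In glycolysis 4 of 21 genes rose (19%) and 3 fell (14.3%), shares not far from those of all genes. ENO2, the neuronal enolase, ranged from 11.5 to 14.7 units at 12 h against 4.07 to 6.02 at 5 h (log2 difference 1.11, adjusted p = 0.0003), and ALDOC rose by 0.83, while GAPDH was not called (0.06). Of 24 cholesterol synthesis genes 5 rose and 5 fell (20.8% each, against 13.4% and 17.2% of all genes). TM7SF2, a sterol reductase, rose (7.55 to 12.6 units at 12 h against 3.08 to 5.31 at 5 h, log2 difference 1.01), and IDI1, the isopentenyl diphosphate isomerase, fell by 0.90 with overlap. Of 18 fatty acid genes 6 rose (33.3%) and none fell. The desaturase FADS1 ranged from 17.0 to 25.4 units at 12 h against 5.82 to 16.01 at 5 h (log2 difference 0.91).

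Cell cycle lists came next. Of 31 G1 and S phase genes 13 fell (41.9%, against 17.2% of all genes) and none rose (median -0.19). Of 33 G2 and mitosis genes 3 fell (9.1%) and 2 rose (6.1%, against 13.4% of all genes), with a median of -0.04. Each of these mitosis shares was below that of all genes, and the difference between the lists was not tested. With the length and GC trend removed, 15 of the G1 and S phase genes fell and 1 rose. In that fit 8 of the G2 and mitosis genes rose and 3 fell (median 0.06), beside 15.9% of all genes higher and 18.3% lower. POLE2, a DNA polymerase subunit, ranged from 10.8 to 15.97 units at 12 h against 13.6 to 29.9 at 5 h (log2 difference -0.77, adjusted p = 0.00633). CDK1, the mitotic kinase, had a log2 difference of -2.08 in MeS-chaetocin, -0.28 in MeS-chetomin and -1.32 in DMSO. MKI67, also in the mitosis list, rose with overlap (log2 difference 0.73, adjusted p = 0.0294). CCNB1 was not called (log2 difference -0.12). Of 27 p53 targets 6 rose (22.2%) and 5 fell (18.5%), shares not far from the 13.4% and 17.2% of all genes, and CDKN1A, the p21 inhibitor, was not called (63.6 to 70.5 units at 12 h against 51.7 to 65.1 at 5 h).

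The study concerned genes that respond to metals, and in these control treatments 1 of 6 was called (16.7%, against 30.6% of all genes). With the length and GC trend removed 2 were called, each higher, beside 15.9% of all genes higher and 18.3% lower. MT2A, the main metallothionein here, ranged from 797 to 1318 units at 12 h against 551 to 984 at 5 h, and was not called (log2 difference 0.20, 95% interval -0.14 to 0.53, adjusted p = 0.351). With the length and GC trend removed MT2A was called higher (log2 difference 0.41, adjusted p = 0.0111), and without the 2 libraries it had the same 0.41 and was not called (adjusted p = 0.0727). MT1X was not called either (0.13), nor was the zinc exporter SLC30A1 (-0.25). MT1F rose (5.56 to 9.82 units at 12 h against 2.01 to 5.14 at 5 h, log2 difference 0.60, adjusted p = 0.0276). That call was lost without DMSO 12 h replicate 2, DMSO 5 h replicate 2, MeS-chaetocin 12 h replicate 1, MeS-chaetocin 5 h replicate 2, either MeS-chetomin 12 h library or MeS-chetomin 5 h replicate 1, with log2 differences of 0.46 to 0.59. The oxidative stress enzyme HMOX1 was not called (log2 difference -0.07), but the treatments differed in level and sign. In MeS-chaetocin it was 38.2 and 39.2 units at 12 h and 46.4 and 50.2 at 5 h. In the other libraries it was 19.4 to 24.8 at 12 h and 15.1 to 19.9 at 5 h. Its log2 difference was -0.46 in MeS-chaetocin, -0.05 in MeS-chetomin and 0.31 in DMSO, and its interaction was not called. Of 27 NRF2 targets 7 fell (25.9%, against 17.2% of all genes) and 3 rose (11.1%, against 13.4%). Thioredoxin, TXN, fell (306 to 364 units at 12 h against 364 to 880 at 5 h, log2 difference -0.86), and the exporter ABCC2 led the rises (log2 difference 1.08). That balance turned with the length and GC trend removed, when 8 rose and 5 fell, beside 15.9% and 18.3% of all genes. Without the 2 libraries 5 rose and 6 fell, beside 11.4% and 11.1% of all genes.

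Counts for the remaining lists follow, beside 13.4% risen and 17.2% fallen of all genes. Numbers risen and fallen were 6 and 2 of 20 interferon response genes, 4 and 2 of 26 lysosome and autophagy genes, 2 and 7 of 20 SR protein and CLK genes, and 2 and 3 of 18 aminoacyl-tRNA synthetases. They were 1 and 1 of 13 histone genes, 1 and 1 of 11 NF-kB targets, 1 and 2 of 6 MondoA targets, and 1 and 0 of 6 intestinal differentiation genes. With the length and GC trend removed, 8 lysosome and autophagy genes and 4 histone genes rose, beside 15.9% of all genes. In that fit 3 intestinal differentiation genes fell and none rose, beside 18.3% of all genes lower. The lysosomal protease CTSB ranged from 154 to 205 units at 12 h against 71.9 to 115 at 5 h (log2 difference 0.73, adjusted p = 0.00227). CLK1, a splicing kinase, fell by 0.84 with overlap.

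**Figure D3:**
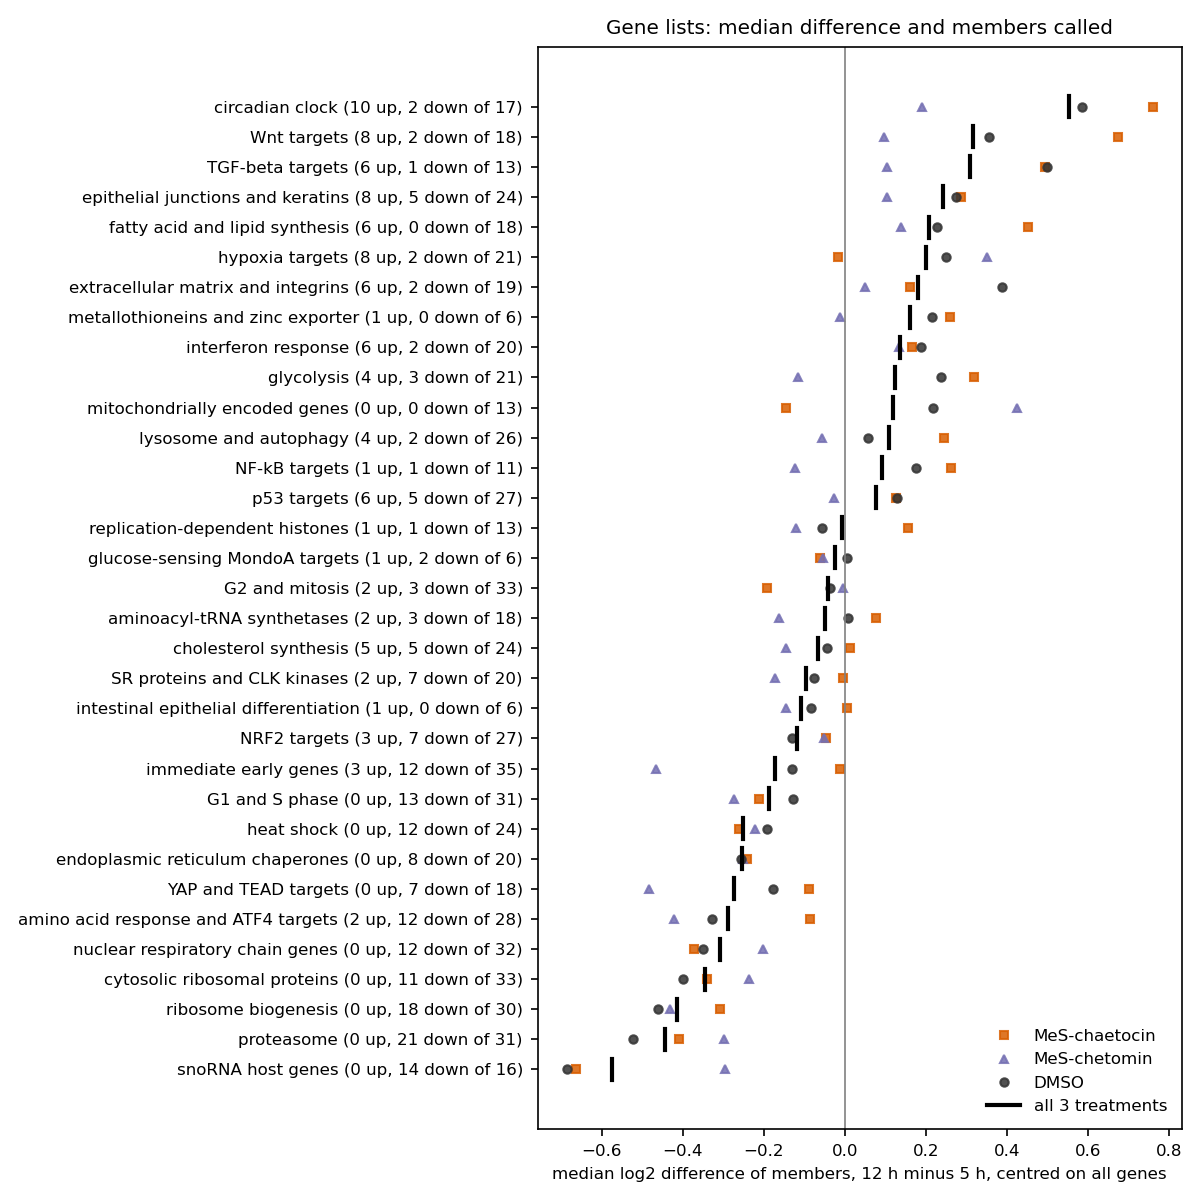
Median centred log2 difference (12 h minus 5 h, horizontal axis) of each of 33 gene lists, with squares for MeS-chaetocin, triangles for MeS-chetomin, circles for DMSO and a black bar for all 3 treatments; labels give members called in each direction. Clock genes are highest at 0.55 and snoRNA host genes lowest at -0.58.

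Whether the 3 treatments shared the change was examined next. Of the 1890 genes that rose, 1832 were higher in all 3 treatments, and of the 2423 that fell, 2358 were lower in all 3, together 29.8% of genes tested; over all genes tested, 55.7% had 1 sign throughout. The overall fit used all 3 treatments, so this agreement describes the called genes and is no separate test of them. No gene passed the test of a treatment-by-time interaction by limma at an adjusted p under 0.05, with 1314 genes (9.34%) at an unadjusted p under 0.05, and the count was 0 or 1 under every alternative for which it was computed. Within a treatment, on 2 against 2 libraries with the spread pooled over all 12, 1200 genes rose (8.53%) and 1296 fell (9.21%) in MeS-chaetocin. In MeS-chetomin 5 rose (0.0355%) and 11 fell (0.0782%), and in DMSO 296 rose (2.1%) and 444 fell (3.16%). These counts do not show that the treatments differ, and they depended on single libraries. The MeS-chaetocin count was 4 without MeS-chaetocin 12 h replicate 1 and 4811 without MeS-chaetocin 5 h replicate 2; the other libraries that moved it by over 1.5 times were MeS-chaetocin 12 h replicate 2, MeS-chaetocin 5 h replicate 1 and both of MeS-chetomin at 12 h. The MeS-chetomin count was 0 without MeS-chetomin 12 h replicate 1 and 141 without MeS-chaetocin 5 h replicate 2, and each library but those of DMSO at 12 h moved it by as much. The DMSO count was 3 without DMSO 12 h replicate 2 or DMSO 5 h replicate 2 and 2510 without MeS-chaetocin 5 h replicate 1, and every one of the 12 libraries moved it by over 1.5 times.

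The spread of the log2 differences over genes was wider in MeS-chaetocin (SD 0.58) and DMSO (0.49) than in MeS-chetomin (0.33). Both treatments with the wide spread hold 1 of the 2 libraries that stood apart, and MeS-chetomin holds neither. Across 14072 genes, which are not independent replicates, Pearson's r between differences was 0.85 for MeS-chaetocin and DMSO, 0.49 for MeS-chetomin and DMSO, and 0.34 for the 2 analogs. MALAT1, a nuclear long noncoding RNA, is a gene with values far apart, though its interaction was not called, at -2.11 in MeS-chaetocin, 0.33 in MeS-chetomin and -1.83 in DMSO. CHAC1, TUBA1A and DBP gave similar values in all 3; for DBP they were 1.63 in MeS-chaetocin, 1.65 in MeS-chetomin and 1.48 in DMSO.

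**Figure D4:**
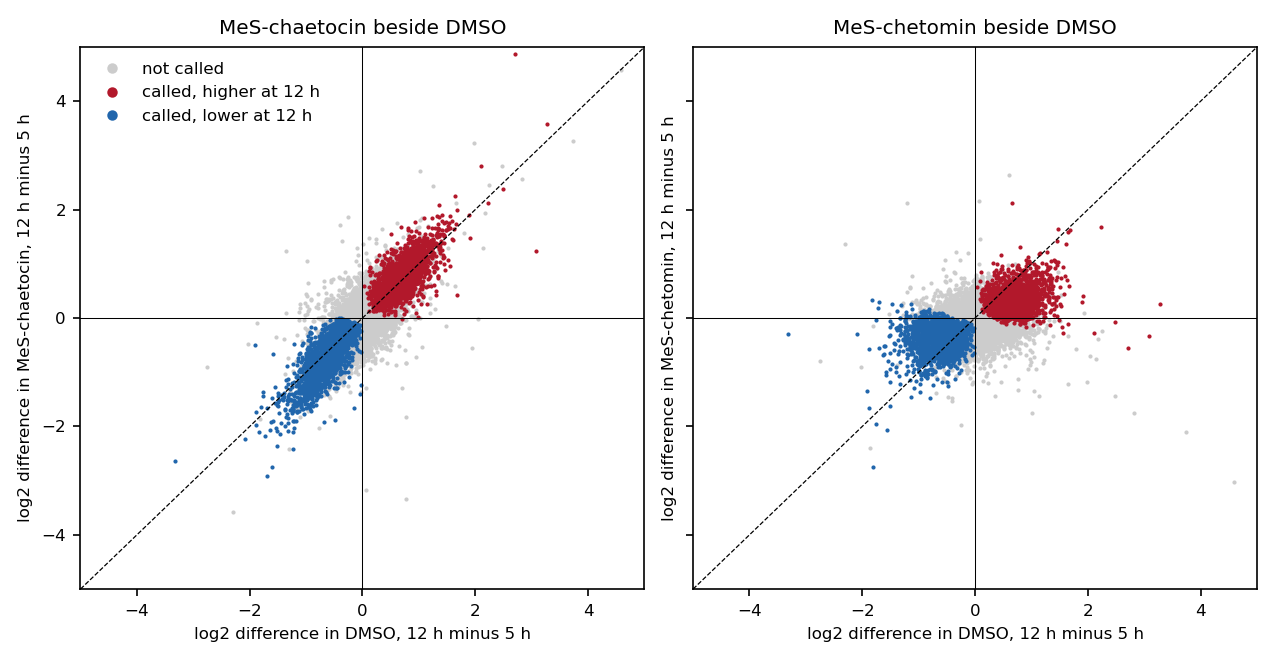
Log2 difference (12 h minus 5 h) of 14072 genes in each analog (vertical axis) beside that in DMSO (horizontal axis); red genes rose and blue genes fell over all 3 treatments, grey were not called, and the dashed line marks equal values. The cloud follows the line for MeS-chaetocin (r = 0.85) and is flatter for MeS-chetomin (r = 0.49).

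Called genes differed in transcript length, base composition and level. Over the 12 libraries the median gene averaged 6.34 units among genes that rose, 31.5 among those that fell and 10.3 among all tested. No fit removed a trend with level, and its part in the calls was not tested. Genes that rose had a median annotated length of 4510 bases, 54.4% GC and 11 exons, genes that fell had 2407 bases, 45.5% GC and 6 exons, and all genes tested had 3484 bases, 49.1% GC and 7 exons. The median log2 difference climbed over 5 equal classes of length, from -0.21 in the shortest to 0.18 in the longest. The trend with GC was not shared: from the lowest to the highest class the median ran from -0.28 to 0.28 in MeS-chaetocin and from -0.11 to 0.13 in DMSO, but from -0.01 to -0.13 in MeS-chetomin. With a smooth trend on both removed, 2229 of 14035 genes rose (15.9%) and 2567 fell (18.3%), and 3109 of the 4313 were called the same way. Of the 14072 genes tested, 2329 were called the same way in that fit, without the 2 libraries and in the first fit. Of these 1202 were higher and 1127 lower. In all 3 fits 8 of 17 clock genes rose. Those that fell in all 3 were 14 of 30 ribosome biogenesis genes, 10 of 16 snoRNA hosts and 11 of 31 proteasome genes. So did 8 of 28 ATF4 list genes and 7 of 18 YAP and TEAD targets. Among respiratory chain genes 5 of 32 fell, and among ribosomal protein genes 2 of 33.

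**Figure D5:**
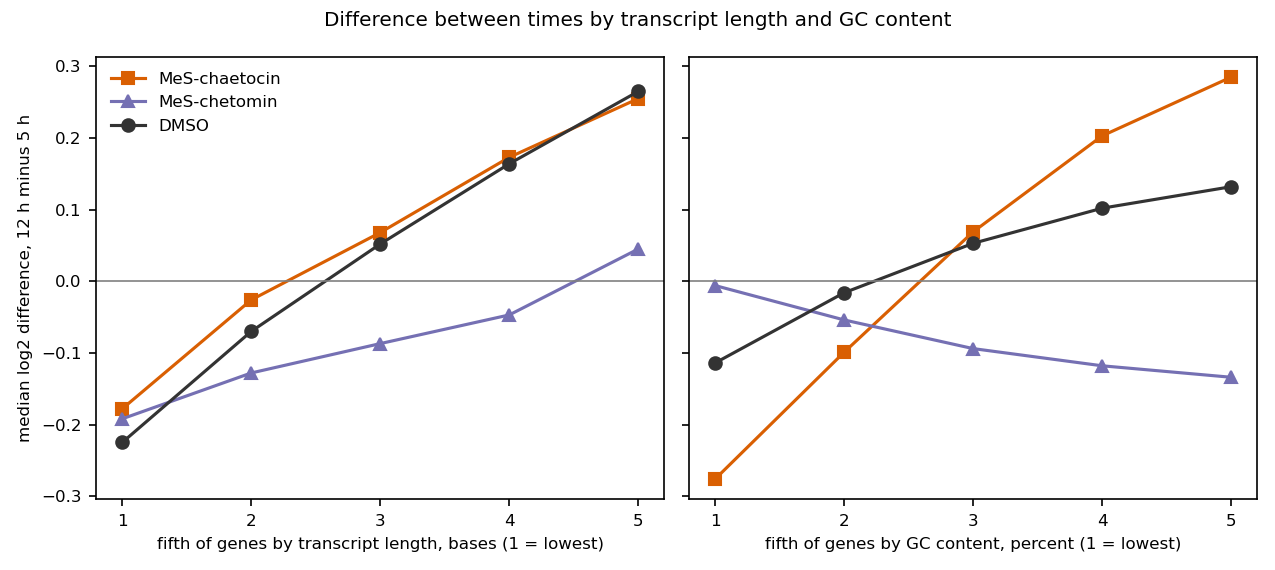
Median log2 difference (12 h minus 5 h, vertical axis) in 5 equal classes of genes by annotated transcript length (left) and GC content (right), with squares for MeS-chaetocin, triangles for MeS-chetomin and circles for DMSO. Medians climb with length in all 3 treatments, and the GC trend of MeS-chetomin runs the other way.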

How the data were processed

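RNA from 12 libraries of HCT116 cells was compared between 12 h and 5 h, with treatment as a covariate. The submitters' processing notes name STAR 2.5.2b, RSEM 1.3.3, edgeR and the build GRCh38. Their settings, the annotation and strand handling are not stated there. The deposited values per library are signal in normalized units that the file headers do not name, at 2 decimals. The deposited tables also give the authors' mean CPM per group, used only as an alternative and to find library sizes. Where 1 library of a pair was listed at 0, the authors' mean CPM falls on steps of what 1 read is worth in the other, and 69.2% to 89.7% of such values came out whole within 0.02 reads. The deposited log2 fold changes and p-values of the authors compare compounds with vehicle and were not used. Since the values are not counts, limma 3.58.1 (R 4.3.3) modelled log2(value + 1), a prior variance following intensity and two-sided tests, on 12 libraries with 8 residual degrees of freedom. The median difference over all genes was subtracted before testing, and genes were called where the p adjusted over 14072 genes by Benjamini and Hochberg was under 0.05. The fit was tested on simulated data.

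No filter was added to the authors' own. Gene positions, lengths and GC content came from GENCODE 29 for 14035 of 14072 genes, and promoters from RefSeq for 10549. Of 776 genes in the 33 lists, 699 were matched. The members and lists were chosen with earlier results of these data known. Named genes were those always reported, the 12 with the largest called change each way among genes averaging at least 5 units whose groups did not overlap after centring, and up to 3 called members per list; others named among list members were chosen after their values were seen. Replicate numbers did not pair libraries: of 15 pairs of groups, 7 had a correlation of same-numbered deviations over 0.1 and 5 under -0.1. Alternatives were centring, scaling, pseudocount, a filter, a replicate block, and leaving out libraries or treatments. Some genes the naming rule gives are not reported here.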

Additional observations from a re-analysis of the deposited data

Results flagged for a closer look

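In 5 of 230 groups of 6 libraries, 1 library lay far from the others by Dixon's test, where chance gives about 1 in 20. TRIOBP was 83.69 units in MeS-chetomin 12 h replicate 2, against 93.1 to 95.6 in the other 12 h libraries. SNHG8 was 139.15 units in MeS-chetomin 12 h replicate 1, against 168 to 184 in the others. LINC00963, a long noncoding RNA, was 13.79 units in MeS-chaetocin 12 h replicate 1, against 9.38 to 10.4. At 5 h, GADD45B was 51.86 units in MeS-chaetocin replicate 1, against 25.6 to 33.4, and the signal recognition RNA gene RN7SL2 was 8131.7 units in DMSO replicate 1, against 4807 to 5779; these are the 2 libraries that stood apart.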

How the results depend on the processing

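The count of 4313 genes over all treatments moved by less than 1.5 times under 8 alternatives, among them no centring (4852), own-median centring (4544), median-of-ratios scaling (4659), a pseudocount of 0.1 (4256) and a filter at 1 (4054). It was 560 without DMSO, 1670 without MeS-chaetocin and 3914 without MeS-chetomin, and each of these fits used the same smaller number of libraries. From the authors' mean CPM, which has 1 value per group, it was 2744. Leaving out 1 library gave 2886 to 4756 genes over all treatments, 0 to 1 for the interaction, 3 to 2510 in DMSO, 4 to 4811 in MeS-chaetocin and 0 to 141 in MeS-chetomin; a lone library was assumed to vary like the other groups. The interaction count was 1 with own-median centring and without the 2 libraries that stood apart. Without these 2, an alternative chosen after seeing the data, counts were 355 in DMSO, 797 in MeS-chaetocin and 118 in MeS-chetomin, and with the length and GC trend removed, also chosen then, 1211 in DMSO and 196 in MeS-chetomin. With the replicate block, in samples the numbers do not pair throughout, counts were 4312 over all treatments and 10 in MeS-chetomin. Of 136 named genes called, 8 to 27 lost the call when 1 library was left out and none reversed. Genes not called changed sign: without centring HMOX1 (0.081), HMGCS1 (0.089), ASNS (0.072) and CCNB1 (0.029); with own-median centring CDKN1A (-0.009) and GAPDH (-0.021), and GAPDH (-0.005) with median-of-ratios scaling; on leaving out 1 library HMOX1 (-0.16 to 0.004), ASNS (-0.154 to 0.001) and GAPDH (-0.003 to 0.114), each through a MeS-chaetocin 5 h library; without MeS-chaetocin HMOX1 (0.15), ASNS (0.099) and GAPDH (-0.015); without the 2 libraries ASNS (0.02); and with length and GC removed HMGCS1 (0.095), ASNS (0.062) and CCNB1 (0.132). List medians moved by more than the SD between replicates in 14 of 33 lists without centring, in 5 with length and GC removed, in 5 with the authors' mean CPM and in 3 without the 2 libraries. The cause was not tested.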
